A study of Rattus norvegicus with 38 samples.

Results

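Within-pup changes in DNA methylation were compared between 4 pups reared for a week with limited bedding and nesting (LBN2, LBN4, LBN9 and LBN11) and 4 pups reared in standard cages (C1, C5, C8 and C11), all of cohort 2. They gave 16 of the 38 samples of the series, a buccal swab on P2 and another on P10 from each pup. All were Sprague Dawley rats, the P2 swab was taken before pups were randomized, and the P10 swab followed the week in LBN or standard cages. Cohort 1, used only as a comparison, gave the other 22 samples. A buccal swab holds epithelial cells and white blood cells, so a change in a percentage and a change in the mix of cells cannot be told apart. For each differentially methylated region (DMR), δ methylation stands for the pup's own log2 ratio of the P10 to the P2 percentage, so that −1 is a percentage that halved. It was computed at the 3384 of 3417 DMRs with no value of 0 in cohort 2. Of these, 2477 are given as 2 adjacent positions, which is a single CpG. The DMRs had been selected by the authors for differences between P2 and P10 within these and the cohort 1 pups.

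DNA methylation at CpGs is written by DNA methyltransferases, is copied when cells divide, and is lost by dilution or by active demethylation. Methylation differs strongly between cell types, and methylated promoters are as a rule less active, while methylation within gene bodies has no fixed relation to activity. In LBN rearing the dam has little nesting material, and her care of the pups becomes fragmented and unpredictable.

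At P2, before the experience, LBNs and controls already differed at many DMRs, whereas at P10 no DMR passed the adjusted p. In limma tests of the log2 percentage, 405 of 3384 DMRs (12.0%) passed an adjusted p of 0.05 at P2, of which 177 were higher and 228 lower in the pups later assigned to LBN. At P10, none passed (0.0%), and the smallest adjusted p was 0.999. An unadjusted p under 0.05 was found at 74 DMRs (2.19%) at P10, against 35.3% at P2. The P2 values of the groups did not overlap at 816 DMRs (24.1%), and the P10 values did not overlap at 37 (1.09%). The SD over DMRs of the group difference was 0.47 at P2 and 0.27 at P10, on the log2 scale. The count at P2 was 5 without LBN11 and 559 without C8. Because δ methylation is the P10 level minus the P2 level on the log2 scale, a difference at P2 enters it with opposite sign. These P2 differences precede the rearing week, and their share of the δ methylation difference is given for the genes described most fully.

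**Figure D1:**
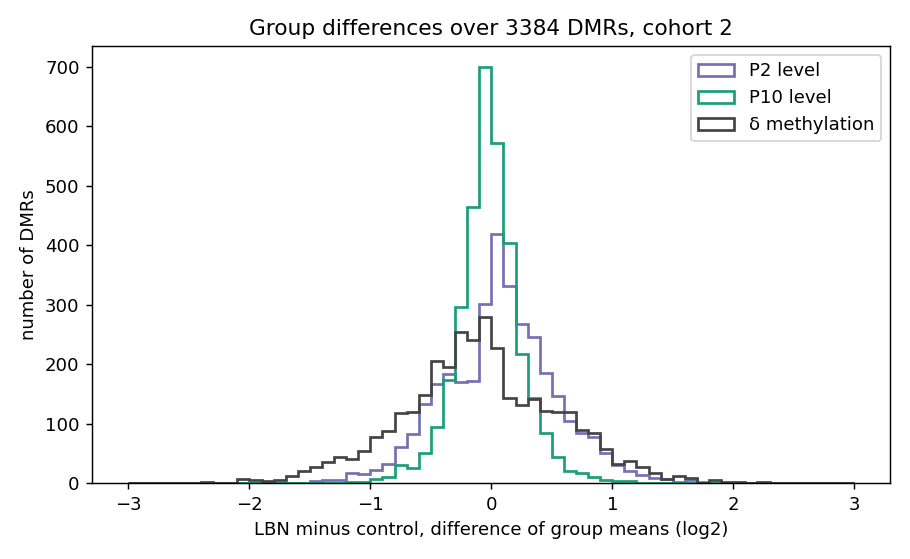
Number of DMRs (y axis) by the LBN minus control difference of group means on the log2 scale (x axis), for the P2 level, the P10 level and δ methylation over 3384 DMRs of cohort 2. The P10 curve is the narrowest, with an SD of 0.27 against 0.47 at P2 and 0.65 for δ methylation.

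δ methylation differed between LBNs and controls at 11 of 3384 DMRs (0.325%) in the limma test, 5 higher and 6 lower in LBNs, all with an adjusted p of 0.0477. At an unadjusted p under 0.05 there were 778 DMRs (23.0%), 392 higher and 386 lower. The 11 calls were not stable: leaving out any pup other than C5 left 0, and leaving out C5 gave 90, 53 higher and 37 lower. On the percentage point scale 78 DMRs passed, 72 of them higher in LBNs, on the log-odds scale 2 passed, both higher, and with 1 percentage point added before the logarithm none passed. At all 11 DMRs the 4 LBN values and the 4 control values of δ methylation did not overlap, as at 13.3% of all 3384 DMRs. The 11 were chosen on these same values, so this is not separate evidence.

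The DMRs with a gene name among the 11 lay in Sh2d5, Rxra and Fzd7. Sh2d5 encodes an adaptor protein with an SH2 domain. Its exonic DMR (chromosome 5, 156623833 to 156623834 on rn6) was methylated at P2 to 42.9, 66.1, 66.7 and 73.7% in C1, C5, C8 and C11, and to 50.5, 45.1, 20.6 and 20% in LBN2, LBN4, LBN9 and LBN11. At P10 the controls had 14, 25.5, 14.5 and 18.2%, and the LBNs had 36.6, 43.1, 19.3 and 20%. All 4 controls thus had a lower percentage at P10, whereas LBN4, LBN9 and LBN11 stayed near their P2 values. δ methylation was −1.80 ± 0.37 in controls and −0.16 ± 0.21 in LBNs (SD, n = 4), a difference of 1.65 (95% interval 1.10 to 2.19, limma adjusted p = 0.0477). The P2 difference made up 59.1% of it.

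Rxra encodes the retinoid X receptor alpha, the nuclear receptor that pairs with retinoic acid, vitamin D and thyroid hormone receptors. Its intronic DMR (chromosome 3, 6267952 to 6267953) had 31.7, 30.9, 29.5 and 43.8% at P2 in C1, C5, C8 and C11, and 24.4, 17.6, 12.5 and 9.52% in LBN2, LBN4, LBN9 and LBN11. At P10 the controls had 10.3, 11.3, 5.63 and 14.6%, and the LBNs 23.0, 24.1, 11.4 and 16.7%. The P2 ranges of the groups were apart, with the controls higher, and the P10 ranges overlapped. δ methylation was −1.76 ± 0.42 in controls and 0.26 ± 0.45 in LBNs (SD, n = 4), which differed by 2.02 (95% interval 1.34 to 2.71, limma adjusted p = 0.0477). The P2 difference was 57.2% of this.

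Fzd7 encodes a Frizzled receptor of Wnt ligands, and its exonic DMR (chromosome 9, 66307647 to 66307648) moved the other way. At P2 it was methylated to 13.8, 10.6, 18.4 and 10.2% in C1, C5, C8 and C11 and to 30.5, 28.0, 26.0 and 33.3% in LBN2, LBN4, LBN9 and LBN11. At P10 the controls had 54.9, 44.4, 37.0 and 40.6% and the LBNs 35.9, 29.2, 25.3 and 23.9%. Controls were below every LBN at P2 and above every LBN at P10. δ methylation was 1.77 ± 0.51 in controls and −0.06 ± 0.30 in LBNs (SD, n = 4), a difference of −1.82 (95% interval −2.48 to −1.16, limma adjusted p = 0.0477), of which the P2 difference was 65.2%. The lowest control was C8, at 1.01 against 1.99 to 2.07 in the other 3.

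**Figure D2:**
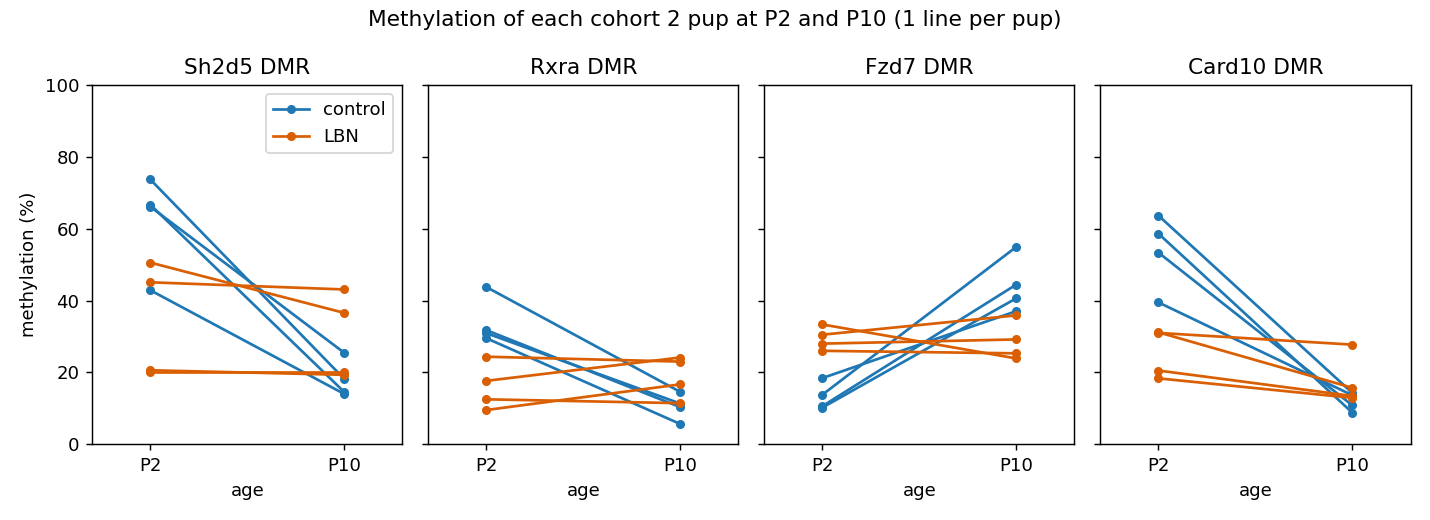
Methylation percentage (y axis) at P2 and P10 (x axis) of each cohort 2 pup, with 1 line per pup, at the DMRs of Sh2d5, Rxra, Fzd7 and Card10. Control lines are steep and LBN lines flatter. At Sh2d5, Rxra and Card10 the group means are farther apart at P2 than at P10. At Fzd7 the groups do not overlap at either age.

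The other 8 DMRs past the threshold carry no gene name in the tables used here. A pair of them lie 459 base pairs apart on chromosome 7 (70364547 to 70364550, and 70365009 to 70365160), so they are not separate loci. At the first, the controls went from 4.66 to 8.24% at P2 to 17.2 to 27.6% at P10, and the LBNs from 10.9 to 17.6% to 13.98 to 16.1%. At the second, δ methylation was between 0.64 and 1.63 in controls and between −0.80 and −0.02 in LBNs. Both thus had more methylation at P10 in every control, and the P2 levels of LBNs lay above those of controls.

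Also with lower δ methylation in LBNs were DMRs on chromosome 7 (117519404 to 117519417), chromosome 16 (20588288 to 20588355) and chromosome 5 (128796568 to 128796574). The last of these was the exception in shape: the controls stayed between 0.23 and 0.54, and the LBNs were between −1.79 and −0.84. Higher in LBNs were DMRs on chromosome 1 (86854276 to 86854277), chromosome 18 (81580706 to 81580741) and chromosome 15 (40479196 to 40479197). On chromosome 15 the percentages at P2 were 72.7 to 93.8% in controls and 38.5 to 56.2% in LBNs, and at P10 they were 30.0 to 66.7% and 45.5 to 86.7%. LBN11 had the lowest δ methylation among LBNs there, 0.24 against 0.58 to 0.65.

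**Figure D3:**
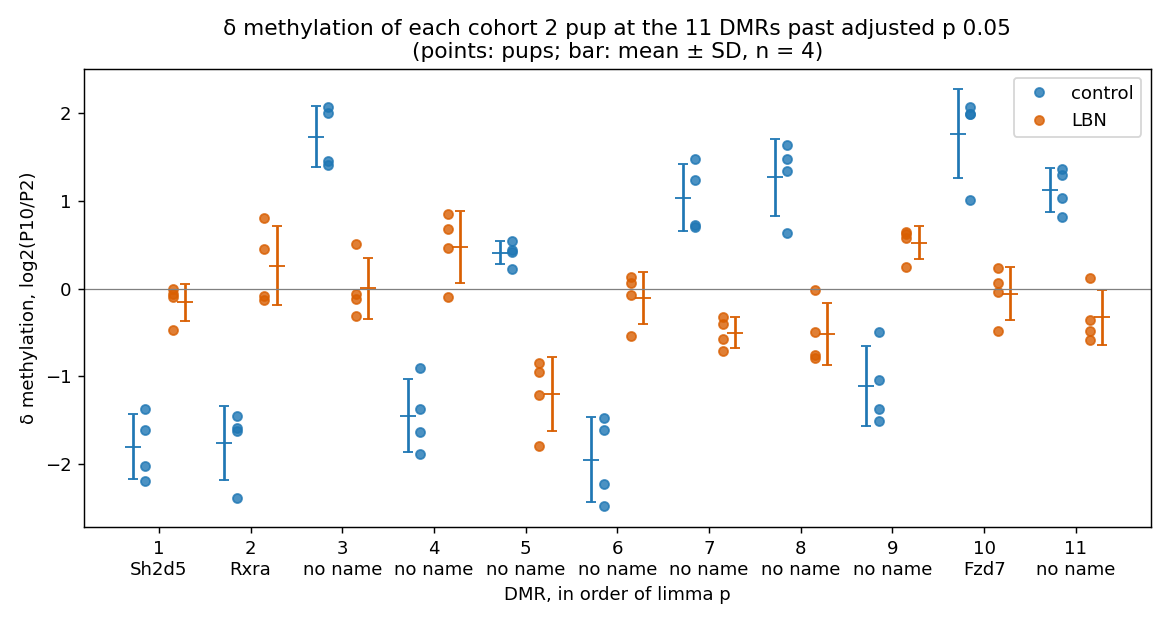
δ methylation, log2(P10/P2) (y axis), of each cohort 2 pup at the 11 DMRs past an adjusted p of 0.05, in order of limma p (x axis). Points are pups and bars the mean ± SD of 4. The groups do not overlap at any of the 11, which were chosen on these values. Controls lie farther from 0 than LBNs at 10 of them.

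Of the 11 DMRs, all had an unadjusted p under 0.05 for the P2 level, against 35.3% of all DMRs. At P2, 8 passed the adjusted p, where the background was 12.0%, whereas none passed at P10. The P2 difference was larger than the P10 difference at 10, against 72.4% of all DMRs. Its share of the δ methylation difference was 49.7 to 87.7%, with a median of 65.2%. The P2 difference is part of δ methylation, so these shares are a decomposition and not separate evidence.

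Without that threshold, 451 DMRs had δ methylation that did not overlap between the groups. It was higher in LBNs at 233 (6.89%) and lower at 218 (6.44%). These DMRs were chosen on δ methylation itself, so the directions that follow describe them and are not separate evidence. At 221 of the 233, all 4 controls had less methylation at P10, and the median δ methylation was −0.74 in controls and 0.03 in LBNs. At these DMRs the median percentage of controls was 68.6% at P2 and 38.9% at P10, and that of LBNs was 47.1% and 47.5%. At 159 of the 218, all 4 controls had more methylation at P10, with a median δ methylation of 0.61 in controls and −0.28 in LBNs. The control mean change was the larger in size at 222 of the 233 and at 150 of the 218, against 57.0% of all 3384 DMRs. The P2 ranges of the groups were apart at 167 of the 233 and 137 of the 218, against 24.1% of all DMRs. The P10 ranges were apart at 13 and 17, against 1.09%. Both levels are part of δ methylation, on which these DMRs were chosen, so these counts are not separate evidence.

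The same direction was found at a minority of these DMRs in cohort 1, whose 6 control and 5 LBN pups are other animals. There, δ methylation of LBNs against controls passed at 0 of 3354 DMRs (0.0%) in limma, and 196 (5.84%) had an unadjusted p under 0.05. Of the 233 DMRs higher in LBNs of cohort 2, 50 (21.5%) were also higher in LBNs of cohort 1, where 58.6% of all DMRs were higher. Of the 218 lower ones, 25 (11.5%) were also lower in cohort 1, where 41.4% of all DMRs were lower. Among the 11 DMRs, 2 had the same sign in cohort 1. A test of the difference between the cohorts gave 1 DMR of 3354 past the adjusted p (0.0298%) and 840 at an unadjusted p under 0.05. At the 11 DMRs its adjusted p was between 0.0755 and 0.144. The DMR that passed was near Pik3cd, described below.

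Among named genes that follow the 11 in order of p, none passed the adjusted p. Slc44a2 encodes a choline transporter-like protein, and its DMR is annotated at the promoter and transcription start (chromosome 8, 22368751 to 22368752 on rn6). It had 12.5, 4.19, 9.09 and 8.05% at P2 in C1, C5, C8 and C11 and 15.5, 14.7, 15.3 and 14.4% in LBN2, LBN4, LBN9 and LBN11. At P10 these were 11.2, 5.19, 11.4 and 12.5% and 7.55, 2.47, 5.34 and 4.14%. Here the LBNs were lower at P10 and the controls stayed near their start, with a δ methylation difference of −2.01 (95% interval −2.77 to −1.24, limma adjusted p = 0.055) and a P2 share of 46.3%. The other DMR so annotated among those named is that of Mfap2, a protein of elastic microfibrils (chromosome 5, 159534225 to 159534289). It had more methylation at P10 in all 8 pups, with δ methylation of 1.60 to 2.01 in controls and 0.68 to 1.60 in LBNs (limma adjusted p = 0.171).

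The 250 bases before the start of these genes in RefSeq (GRCr8, plus strand) are shown because these are the named DMRs that the annotation places at a promoter. Capitals mark CCGG, the site of Msp I, which cut the DNA for these libraries. The positions of the DMRs were not transferred from rn6 to GRCr8, so which CpG was measured is not marked.
Slc44a2: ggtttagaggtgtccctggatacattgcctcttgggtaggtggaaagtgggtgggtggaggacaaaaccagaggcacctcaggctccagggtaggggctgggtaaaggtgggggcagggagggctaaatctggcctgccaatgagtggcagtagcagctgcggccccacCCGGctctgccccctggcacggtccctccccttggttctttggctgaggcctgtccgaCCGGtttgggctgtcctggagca
Mfap2: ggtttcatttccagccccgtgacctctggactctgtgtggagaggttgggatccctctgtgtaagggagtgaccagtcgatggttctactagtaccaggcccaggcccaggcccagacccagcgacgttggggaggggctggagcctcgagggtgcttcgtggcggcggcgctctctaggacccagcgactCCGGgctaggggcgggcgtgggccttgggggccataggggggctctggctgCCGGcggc
The first is chr8:28164122-28164371 and holds 2 CCGG and 5 CpG, and the second is chr5:158597478-158597727 and holds 2 CCGG and 15 CpG. CCGG reads the same on both strands and was present in 46.2% of 33469 RefSeq windows of this length.

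Card10, a scaffold that links receptors to NF-κB, had an exonic DMR (chromosome 7, 120011332 to 120011333) with 53.3, 39.5, 63.6 and 58.6% at P2 in C1, C5, C8 and C11 and 31.0, 18.3, 31.1 and 20.5% in LBN2, LBN4, LBN9 and LBN11. At P10 all 8 pups were lower, at 8.79 to 14.3% in controls and 12.9 to 27.7% in LBNs. Its δ methylation was higher in LBNs by 1.62 (95% interval 0.94 to 2.29, limma adjusted p = 0.0563), with a P2 share of 68.7%. Pik3cd encodes the PI3-kinase catalytic subunit of leukocytes. Its intergenic DMR (chromosome 5, 166629752 to 166629792) had 5.92 to 10.1% at P2 in controls and 24.8 to 26.1% in LBNs, the P2 ranges being far apart. At P10 it had 16.8 to 33.3% and 15.7 to 23.5%. δ methylation differed by −2.05 in cohort 2 (limma adjusted p = 0.0563) and by 1.38 in cohort 1, and the difference between cohorts was −3.43 (limma adjusted p = 0.0322). In cohort 2 the P2 share was 85.0%. With each of the 19 pups of both cohorts left out in turn, the difference between cohorts stayed between −3.68 and −3.11, but it no longer passed in 13 of the 19 fits, where its adjusted p reached 0.126.

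Next in that order were the DMRs of Pebp4, Bfsp1 and Gltp, and then that of Hlx, named from the list of homeobox genes. Bfsp1, which encodes a lens filament protein, was higher in LBNs by 1.79, and Pebp4, Gltp (a glycolipid transfer protein) and Hlx (a homeobox factor) were lower by −1.23, −1.68 and −1.58. Limma adjusted p values were 0.0576, 0.0576, 0.0625 and 0.0625, in the order Pebp4, Bfsp1, Gltp and Hlx. δ methylation did not overlap between groups at any of these, as at 13.3% of all DMRs, and they were chosen by their small p.

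Gene lists were described by counts, since the named genes come from the study's tables, which were made from these pups, and their directions are not independent evidence. In the list of NF-κB, TNF and cytokine signalling, 5 of 19 DMRs were higher in LBNs without overlap and 2 lower, where 6.89% and 6.44% of all DMRs were. Of the 440 DMRs with a gene name, from which the lists were drawn, 7.27% were higher and 3.86% lower without overlap. The median δ methylation difference of the list was 0.36, against 0.09 over the DMRs with a gene name and −0.11 over all DMRs, and its median P2 difference was −0.30, against −0.09 and 0.08. No DMR of this list passed the adjusted p. The 5 higher ones were those of Card10, Gadd45b, Map3k5 (a stress kinase), Osm (the cytokine oncostatin M) and Traf3, with differences of 0.71 to 2.56, and the 2 lower ones those of Irf8, a factor of myeloid cells, and Bcl3, an IκB family protein, with −0.83 and −1.38. Gadd45b, a stress-induced gene linked to demethylation, had a δ methylation of −0.84 to −0.26 in controls and 0.08 to 0.62 in LBNs (limma adjusted p = 0.0839). Traf3, an adaptor of TNF receptors, had the highest difference of all named DMRs, 2.56 (intergenic, chromosome 6, 135603480 to 135603489), with δ methylation from −3.13 to −0.57 in controls and from −0.24 to 3.17 in LBNs. The value of 3.17 was that of LBN11, which had 1.45% at P2.

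In the list of leukocyte genes, 3 of 16 DMRs were higher in LBNs without overlap (Cd83, Jaml and Cxcr1) and 2 lower (Pik3cd and Irf8), against the same backgrounds of 6.89% and 6.44% of all DMRs and 7.27% and 3.86% of those with a gene name. The median difference was 0.68, against 0.09 over the DMRs with a gene name and −0.11 over all DMRs. Jaml, an adhesion molecule of leukocytes, had 50.0 to 68.3% at P2 in controls and 31.7 to 53.2% in LBNs, and a difference of 0.96 (limma adjusted p = 0.0939). The mean percentage over this list at P2 was 35.0 to 43.2% in controls and 29.4 to 32.6% in LBNs, and at P10 it was 22.8 to 32.8% and 26.5 to 37.8%. In the list of epithelial genes, none of 13 DMRs was without overlap, and the mean at P2 was 25.7 to 33.7% in controls and 24.2 to 31.8% in LBNs. The part of the mix of cells in the δ methylation differences was not tested.

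Among the lists of transcription factors, 1 of 22 homeobox DMRs (Hlx) and 1 of 37 DMRs of other developmental factors (Rxra) had groups without overlap, where 13.3% of all DMRs had, so neither list stood above the background. Gata3, a factor of T cells and epithelia, had a higher δ methylation in LBNs by 1.15 in cohort 2, with overlapping groups (limma adjusted p = 0.136, P2 share 83.6%). In cohort 1 its δ methylation was lower in LBNs by −1.57 (limma adjusted p = 0.769). The difference between cohorts did not pass at Gata3 (limma adjusted p = 0.0973). Of 19 DMRs of growth factors, Wnt and receptors, Fzd7 was lower and Fzd5, also a Wnt receptor, higher by 0.63 without overlap, which is near the background. For Fzd5 the limma unadjusted p was 0.0345 and the limma adjusted p was 0.189. Nrp2, a receptor of semaphorins and VEGF, was the 1 of 11 guidance DMRs without overlap, again near the background, with a difference of 1.69 (limma adjusted p = 0.0955, P2 share 91.7%). Its P2 percentages were 37.5 to 54.2% in controls and 5.68 to 33.3% in LBNs.

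In the list of matrix genes, 1 of 12 DMRs was without overlap, that of Tnxb, encoding tenascin X, by 0.56 (limma adjusted p = 0.26). At another Tnxb DMR (chromosome 20, 4437111 to 4437112), named for its small p in the list, the groups overlapped. That DMR was higher in LBNs by 0.80 in cohort 2 (limma adjusted p = 0.194) and lower by −1.08 in cohort 1. Without overlap were also 1 of 21 DMRs of neuronal and synaptic genes and 1 of 9 of glycan enzymes (Stt3b, an oligosaccharyltransferase, by −0.87). The neuronal DMR was that of Dbn1, the actin-binding protein drebrin of dendritic spines, with 1.07 ± 0.04 in controls and 0.52 ± 0.29 in LBNs (SD, n = 4) and a limma adjusted p of 0.168. None of 6 DMRs of DNA methylation and chromatin genes was without overlap. These counts lie near or below the 13.3% of all DMRs and show nothing particular to the lists. The DMRs of Map3k5, Osm, Irf8, Bcl3, Cd83, Cxcr1 and Fzd5, and that of Tnxb without overlap, were named after their values were seen. Dnmt3a, a de novo DNA methyltransferase, had more methylation at P10 in all 8 pups, with a difference of 0.45 (95% interval −0.25 to 1.15).

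Averaged over all 3384 DMRs, δ methylation was −0.15, −0.24, −0.32 and −0.08 in C1, C5, C8 and C11 and −0.15, −0.33, −0.33 and −0.36 in LBN2, LBN4, LBN9 and LBN11. Every pup thus had a lower mean at P10, and the groups overlapped, with −0.20 ± 0.11 in controls and −0.29 ± 0.09 in LBNs (SD, n = 4, two-sided exact permutation p = 0.2, where 0.0286 is the smallest that 4 against 4 allow). The difference was −0.09, and it was −0.05 without C11 and −0.14 without LBN2 (exact permutation p = 0.4 and 0.0571). The mean absolute δ methylation was 0.67 ± 0.09 in controls and 0.53 ± 0.13 in LBNs (SD, n = 4, exact permutation p = 0.143), and C11 had the highest, 0.81.

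By starting level, taken from the P2 percentages of cohort 1, the groups were apart only in the lowest of 5 bins. At the 350 DMRs under 25%, mean δ methylation was 0.14 to 0.33 in controls and −0.05 to 0.08 in LBNs. The difference was −0.21 (exact permutation p = 0.0286, adjusted over the 5 bins 0.143). As 0.0286 is the smallest p of 4 against 4, the adjusted test could not pass 0.05 with only 1 such bin. With the bins set by the P2 percentages of cohort 2 the difference was −0.39, with the same adjusted p. Those P2 percentages also enter δ methylation, so this value is not separate evidence. At 843 DMRs between 25 and 45% the difference was also −0.21, with overlapping groups (exact permutation adjusted p = 0.286), and −0.13 without C11. In the other 3 bins it was −0.08, 0.003 and 0.02.

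**Figure D4:**
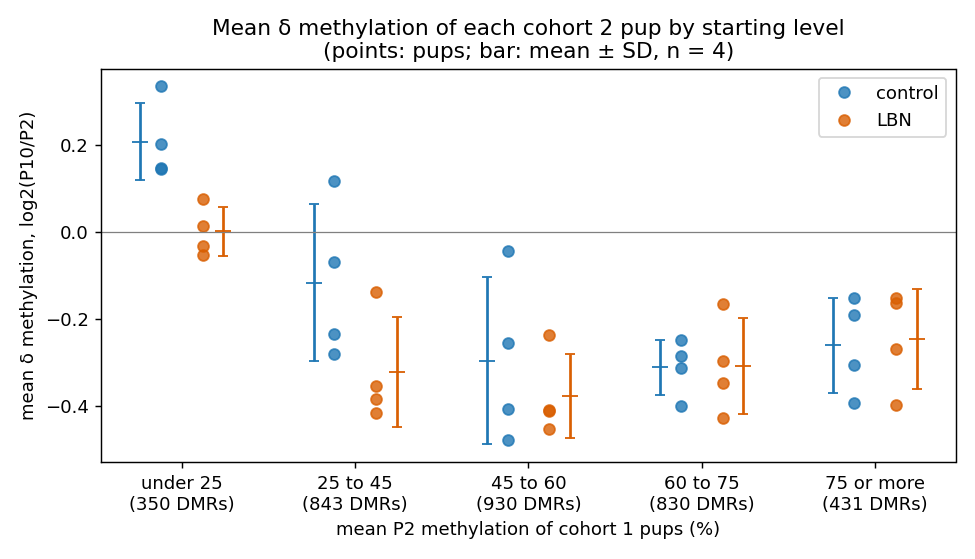
Mean δ methylation, log2(P10/P2) (y axis), of each cohort 2 pup in 5 bins of the mean P2 percentage of cohort 1 pups (x axis). Points are pups and bars the mean ± SD of 4; controls lie above LBNs in the bin under 25%, and the groups overlap in the other 4.

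In a PCA of δ methylation, PC1 held 46.5% and PC2 19.7% of the variance among the 8 pups. PC1 scores were −21.3, 12.5, −7.18 and −49.2 in C1, C5, C8 and C11 and 7.45, 36.7, 9.15 and 11.9 in LBN2, LBN4, LBN9 and LBN11. C5 lay among the LBNs, so the groups overlapped on PC1 (exact permutation p = 0.114, adjusted over 7 components 0.6). The smallest exact p of 4 against 4 is 0.0286. With only 1 component at that value, the smallest adjusted p over 7 components is 0.2. The adjusted test thus could not pass for PC1 alone, even with the groups fully apart, and does not decide whether they differ on it. Across 3384 DMRs of the same 8 pups, PC1 weights correlated with the P2 difference at −0.84 and with the P10 difference at 0.57. With the δ methylation difference they correlated at 0.84. PC1 was computed from δ methylation, which is the P10 level minus the P2 level, so these correlations are not separate evidence. The P2 profiles of LBN9 and LBN11 correlated more with the mean P10 profile of controls (0.839 and 0.832) than with their mean P2 profile (0.818 and 0.775). For LBN2 and LBN4 the order was the reverse, 0.729 and 0.797 against 0.857 and 0.859. The P2 profile of each control correlated at 0.897 to 0.942 with the mean P2 profile of the 3 other controls. With their mean P10 profile it correlated at 0.696 to 0.771.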

How the data were processed

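Reduced representation bisulfite sequencing was made by the authors from buccal DNA cut with Msp I. The submitters' processing notes name Trim Galore 0.4.3, Bismark 0.16.3 and rn6. The deposited values are methylation percent per DMR and sample. The authors kept CpGs above a coverage minimum when calling DMRs, but the reads behind each percentage are not in the files used here, so its depth is unknown and no interval is given for it.

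δ methylation, levels at P2 and at P10, and cohort 1 were tested with limma 3.58.1 in R 4.3.3 (lmFit, eBayes) with Benjamini-Hochberg adjustment at 0.05. The swabs of a pup were matched through its name. Means, bins and PCA scores (scikit-learn 1.9.0) were tested by exact permutation, two-sided. Litters had been mixed before randomization, but the dam, cage and sex of each pup are not in the labels and were not modelled; where littermates in a cage resemble each other, the p values are too small.

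Gene names came from the study's supplementary tables, by position, for 458 DMRs. Named were DMRs past the adjusted p (at most 20), the next 6 with a gene name, 2 per list with the smallest p in 11 lists, and the 5 highest and 5 lowest differences without overlap, which gave 43. The DMRs, lists and tests were chosen with earlier results of these data known. Alternatives were other scales, filters, centring, variance models and each pup left out.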

Additional observations from a re-analysis of the deposited data

Results flagged for a closer look

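Of 90 groups of 4 values checked with Dixon's criterion, 5 held a value far from the other 3, and chance alone gives about 1 in 20. Among controls, C8 had a δ methylation of 1.01 at the Fzd7 DMR, against 1.99 to 2.07 in the others. C5 had −1.35 at the DMR on chromosome 4 (130221446 to 130221447), against −2.48 to −2.32. Among LBNs, LBN11 had 0.24 at the DMR on chromosome 15 (40479196), and LBN2 had −0.022 at the Sema4d DMR, against −0.90 to −0.78. The mean absolute δ methylation of C11, 0.812, stood above those of the other controls.

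At the Pik3cd DMR the LBN effect on δ methylation differed between the cohorts, by −3.43 (limma adjusted p = 0.0322). This call was lost in 13 of the 19 fits that left out 1 pup, LBN2, LBN4, LBN9, LBN11, C1 and C11 of cohort 2 among them. The effect was −2.05 in cohort 2 and 1.38 in cohort 1.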

How the results depend on the processing

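The 11 DMRs of the δ methylation test became 0 with 1 percentage point added before the logarithm (788 at an unadjusted p under 0.05), 78 in percentage points, 2 on the log-odds scale, 0 with robust eBayes (758 at an unadjusted p under 0.05), 1 with all 19 pups in the fit, and 31 when the pairing of P2 and P10 by pup (the replicate block) was left out of the limma fit. Leaving out each pup gave 0 to 90. With other filters, centring or a variance trend it was 10 to 12. At all 11 DMRs the direction was kept in every setting run. The P2 count of 405 was 5 to 559 with each pup left out. The P10 and cohort 1 counts were 0 in every setting run. The 1 DMR that differed between cohorts became 5 in percentage points and 2 on the log-odds scale, and 0 to 238 with each pup left out, the 238 without LBN4 of cohort 1. Of the bin differences, that of 45 to 60% turned to 0.056 with bins set by cohort 2, while that under 25% went from −0.206 to −0.39 and that of 60 to 75% from 0.0028 to 0.096. With each pup left out, that of 45 to 60% lay between −0.142 and 0.00263 and that of 25 to 45% between −0.268 and −0.128. Those of 60 to 75% and of 75% or more lay between −0.045 and 0.042 and between −0.0288 and 0.066. The cause of these changes was not tested. The 11 DMRs lost the call in 133 of 209 values over these settings. The other 32 named DMRs, which did not pass, newly passed in 20 of 603. The mean δ methylation difference lay between −0.139 and −0.051 with each pup left out. The reads behind each percentage are not known, and they limit its precision.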
